A study of Mus musculus with 4 samples.

Results

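The genes described here were 10 markers of formative and primed pluripotency, *Fgf5*, *Otx2*, *Pou3f1*, *Lef1*, *Sall2*, *Zic2*, *Zic5*, *Sox3*, *Sox4* and *Cdh2*, chosen by name from the 50559 genes of the table of read counts. They were followed in 4 RNA-seq libraries of E14 cells, a line of mouse embryonic stem cells (ESCs), with 1 library per group. The control, shScram+EV, carried a scrambled hairpin and the empty vector. The Ythdf2-KD cells, shYthdf2+EV, carried a *Ythdf2* hairpin and the empty vector. In both rescue groups the *Ythdf2* hairpin was combined with an expression vector, either for wild-type YTHDF2 (shYthdf2+DF2WT) or for a YTHDF2 mutant that does not bind N6-methyladenosine (m6A) in RNA (shYthdf2+DF2Mut). All groups were grown on gelatin with leukemia inhibitory factor and serum replacement. The hairpins were delivered by lentivirus to make stable puromycin-selected lines, and the study describes its knockdown ESCs as carrying a *Mervl*-driven tdTomato transgene. The study's methods speak of biological replicates, but the labels and the deposited table hold 1 library for each group, so every difference below compares single libraries, without a check against replicate spread. Values are given in this order: scrambled control, knockdown, wild-type rescue, mutant rescue.

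YTHDF2 is a cytoplasmic protein that binds transcripts carrying m6A and recruits the machinery that degrades them. Pluripotent cells of the mouse pass from a naive state, maintained in ESC culture by leukemia inhibitory factor, through a formative state to the primed state of the epiblast before gastrulation. On leaving the naive state, cells switch on the growth factor *Fgf5* and the transcription factors *Otx2* and *Pou3f1*, then *Lef1*, *Sall2* and genes of the ZIC and SOX families, and they exchange E-cadherin for N-cadherin, the product of *Cdh2*.

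The labelled cell type was checked first against markers that were not among the 10 genes. *Pou5f1*, the central pluripotency factor, had 25581, 29882, 28913 and 25505 reads, and all 16 naive and all 8 core pluripotency genes on the fixed lists were detected in every library. *Ythdf2* itself had 2806, 662, 7661 and 6925 reads. Its log2 ratio in shYthdf2+EV against shScram+EV was -2.27 (95% interval -2.45 to -2.10), so the knockdown and the re-expression were visible in the libraries that the labels name. Library totals lay between 31533129 and 35742335 reads. The libraries also differed outside the genes of interest: reads of 7 Y-linked genes numbered 4, 672, 105 and 602, mitochondrial transcripts took 8.44%, 6.75%, 6.34% and 6.14% of reads, and genes on chromosome 12 had a median log2 ratio of -0.29 in shYthdf2+EV against shScram+EV. None of the 10 genes lies on chromosome 12, and the medians of the 7 chromosomes that hold them lay between -0.00024 and 0.021 in that comparison. Those medians lay between -0.083 and -0.00034 in wild-type rescue against knockdown, where chromosome 12 had 0.19. In mutant against wild-type rescue they lay between -0.00068 and 0.14, and chromosome 12 had -0.17. The part of these library differences in the results was not tested.

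Because the rescue construct was mutated in its m6A-binding site, the GGAC core of the m6A motif nearest to the stop codon is shown for 9 of the 10 genes, read from the longest coding transcript in GENCODE vM21 on GRCm38. Each sequence is on the transcript's strand with GGAC in capitals, and the genes that were at least 2-fold higher in the Ythdf2-KD library come first.
Lef1 (chr3:131193221-131193244, plus strand): acccccacacGGACagtgacctaa
Sall2 (chr14:52312295-52312318, minus strand): tctagggccgGGACcttcttgaga
Zic2 (chr14:122479178-122479201, plus strand): gggggcagcgGGACaaccggaggc
Sox3 (chrX:60892105-60892128, minus strand): cagggcgccgGGACtgcggtcaat
Fgf5 (chr5:98254655-98254678, plus strand): tcggggcgccGGACcggcagcctg
Otx2 (chr14:48658783-48658806, minus strand): tggattataaGGACcaaactgcct
Pou3f1 (chr4:124659053-124659076, plus strand): gtgaccctgcGGACtgggttcccc
Zic5 (chr14:122459333-122459356, minus strand): gaagtcatgcGGACgatacattag
Sox4 (chr13:28951770-28951793, minus strand): tcgaattcccGGACtattgcacgc

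The site lay in the coding sequence 373 bases before the stop codon in *Lef1*, 53 bases before it in *Zic2*, 38 bases before it in *Sox3*, 539 bases before it in *Fgf5*, 88 bases before it in *Otx2*, 11 bases before it in *Zic5* and 82 bases before it in *Sox4*. It lay in the 3′ untranslated region in *Pou3f1* and *Sall2*, 9 and 416 bases past the stop codon. Over 14294 tested coding genes the median distance was 70 bases, and 61.7% had a GGAC within 100 bases. The density of GGAC along the transcript ran from 2.00 per kb in *Fgf5* to 6.19 per kb in *Cdh2*. The 5 genes that were at least 2-fold higher after knockdown had a median of 4.51 per kb, the other 4 tested genes had a median of 5.38, and all tested genes with a transcript had a median of 4.14 with quartiles of 2.97 and 5.50. These are letters in a sequence, and methylation was not measured in these libraries.

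In the Ythdf2-KD library, 5 of the 9 genes with enough reads were at least 2-fold higher than in shScram+EV: *Sox3*, *Lef1*, *Cdh2*, *Zic2* and *Sall2*. None of the 9 was 2-fold lower. Enough reads means a mean of at least 10 over the 4 libraries, which 18586 genes met and *Fgf5*, with a mean of 9.5, did not. Of all genes tested, 7.1% were higher by at least 2-fold and 5.7% were lower by as much, and the former share was 3.55% among genes with a mean of at least 50 reads. The median log2 ratio over the 9 genes was 1.28, with a range from -0.24 to 2.22, while that over all tested genes was -0.0015. The 95% interval, which covers the counting error of read pairs only, lay above 0 for 7 of the 9 genes and for 23.2% of all tested genes. Normalised counts summed over the 10 genes were 98.8, 159.5, 128 and 145 CPM, which are counts scaled to the library size. The log2 ratio of the summed counts, 0.69, was smaller than the median; *Sox4* and *Zic2* supplied most of the summed reads.

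**Figure D1:**
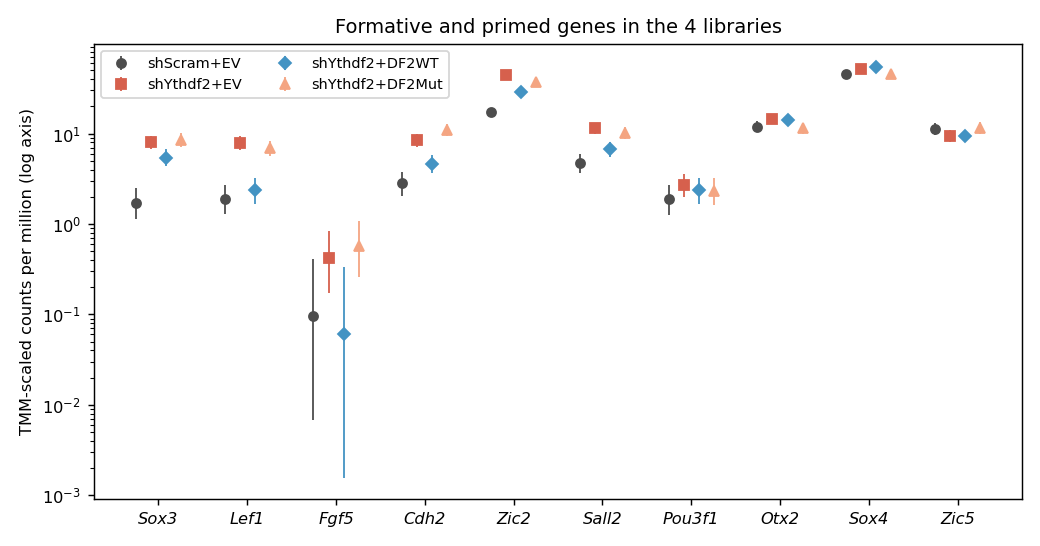
Normalised read counts of each of the 10 genes (CPM, log axis) in the 4 libraries, with bars for the 95% counting interval. *Sox3*, *Lef1*, *Cdh2*, *Zic2* and *Sall2* were lowest in shScram+EV and next lowest in shYthdf2+DF2WT, whereas *Otx2*, *Zic5*, *Sox4* and *Pou3f1* each stayed within 2-fold across the libraries.

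The SOX genes gave the largest and one of the smallest differences. *Sox3*, a SOXB1 factor of the epiblast and early neural plate, lies at chrX:59934972-59937036 on the minus strand of mm39. It had 54, 288, 179 and 270 reads, which is 1.71, 8.01, 5.44 and 8.49 CPM. The scrambled control was thus low, the wild-type rescue was in between, and the other two libraries were close to each other. The log2 ratio in shYthdf2+EV against shScram+EV was 2.22 (95% interval 1.63 to 2.88). *Sox4*, a SOXC factor found in many progenitor cells (chr13:29132902-29137682, minus strand), had 1439, 1885, 1785 and 1437 reads. Its log2 ratio on knockdown was 0.20 (95% interval 0.06 to 0.35), and the mutant rescue was level with the scrambled control.

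*Lef1*, the LEF/TCF factor that partners β-catenin in WNT signalling (chr3:130903946-131018006, plus strand), had 60, 284, 78 and 219 reads. This was the clearest separation of the libraries into a low pair, shScram+EV and shYthdf2+DF2WT, and a high pair, shYthdf2+EV and shYthdf2+DF2Mut. The log2 ratio on knockdown was 2.05 (95% interval 1.48 to 2.68). *Sall2*, a zinc-finger factor of the Spalt family (chr14:52548634-52566127, minus strand), had 148, 410, 223 and 322 reads and a log2 ratio of 1.28 (95% interval 0.89 to 1.69).

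The 2 ZIC genes, zinc-finger factors that lie on chromosome 14 only 9668 bases apart and on opposite strands, behaved differently. *Zic2* (chr14:122712796-122717740, plus strand) had 541, 1590, 940 and 1198 reads, and its log2 ratio on knockdown was 1.37 (95% interval 1.17 to 1.57). *Zic5* (chr14:122696572-122703127, minus strand) had 353, 341, 312 and 368 reads, and its log2 ratio was -0.24 (95% interval -0.55 to 0.08). The level of *Zic5* was therefore nearly flat in the libraries in which its neighbour covered a wide range.

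*Cdh2*, which encodes N-cadherin (chr18:16721934-16942303, minus strand), had 89, 302, 153 and 353 reads. Its highest library was the mutant rescue, and the log2 ratio on knockdown was 1.57 (95% interval 1.09 to 2.09). *Cdh1*, the E-cadherin gene, went the other way with 26182, 17667, 23986 and 15971 reads. The log2 ratio of *Cdh1* was -0.75 (95% interval -0.79 to -0.71), which did not reach 2-fold. Per kb of exon, *Cdh2* made up 0.149%, 0.729%, 0.277% and 0.946% of the summed *Cdh1*, *Cdh2* and *Cdh3* level. Of these cadherin transcripts, *Cdh1* stayed by far the most abundant in every library.

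Of the early formative genes, *Otx2* and *Pou3f1* stayed under 2-fold and *Fgf5* had too few reads to be tested. *Otx2*, the homeobox factor that opens formative enhancers (chr14:48894238-48905101, minus strand), had 377, 523, 468 and 364 reads. Its log2 ratio on knockdown was 0.29 (95% interval 0.01 to 0.56). *Pou3f1*, the POU factor also called OCT6 (chr4:124551439-124554448, plus strand), had 59, 96, 78 and 74 reads, and its log2 ratio of 0.51 had a 95% interval of -0.17 to 1.23. *Fgf5* (chr5:98402043-98424892, plus strand) had 3, 15, 2 and 18 reads, at or under the floor of 3 reads in shScram+EV and shYthdf2+DF2WT. Its log2 ratio on knockdown was 1.97 with a 95% interval of -0.44 to 6.15, so a difference in *Fgf5* between knockdown and scrambled control was not detectable at this depth. In bulk RNA, more cells in a formative-like state and more RNA per cell cannot be told apart for any of these genes.

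**Figure D2:**
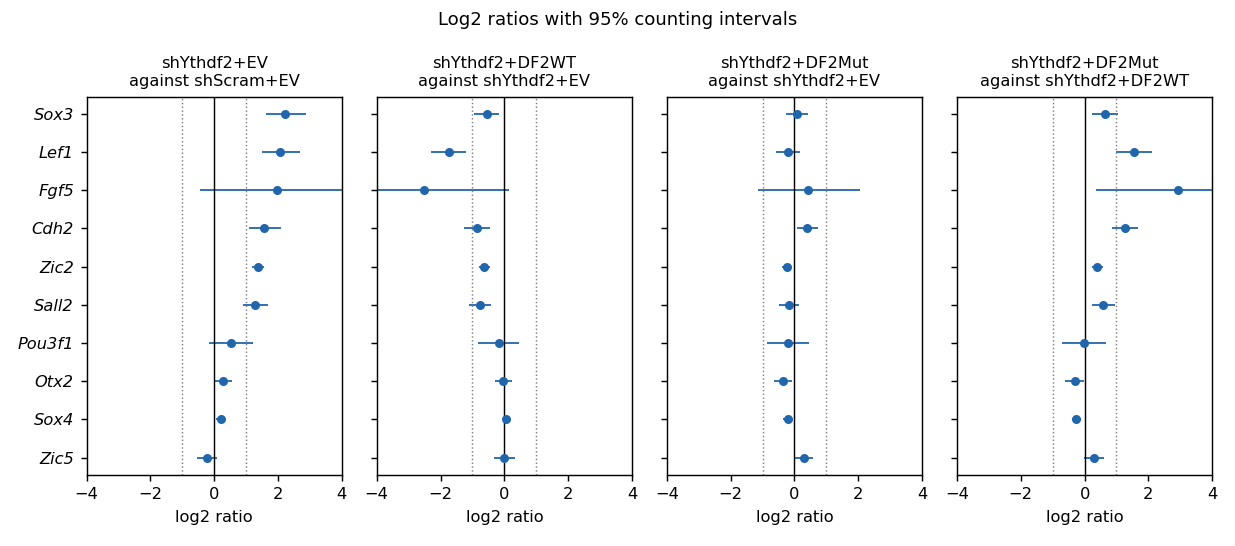
Log2 ratios of the 10 genes in 4 comparisons, 1 per panel, with 95% counting intervals as bars and 0 and 2-fold as lines; the intervals of *Fgf5* run past the axis. Among the 9 tested genes, *Sox3*, *Lef1*, *Cdh2*, *Zic2* and *Sall2* were past 2-fold on knockdown, *Lef1* alone was past it with wild-type YTHDF2, none was with the mutant, and *Lef1* and *Cdh2* were in mutant against wild-type rescue.

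With wild-type YTHDF2 in the knockdown cells, 1 of the 9 genes, *Lef1*, was at least 2-fold lower than in shYthdf2+EV, and none was 2-fold higher. The shares over all tested genes were 5.58% lower and 5.15% higher. The log2 ratio of *Lef1* was -1.73 (95% interval -2.29 to -1.22). The other 4 genes that were 2-fold higher on knockdown were lower by less than 2-fold: *Cdh2* had a log2 ratio of -0.85 (95% interval -1.27 to -0.45) and *Sall2* had -0.75 (95% interval -1.10 to -0.41). *Zic2* had -0.63 (95% interval -0.80 to -0.46) and *Sox3* had -0.56 (95% interval -0.96 to -0.17). The interval lay below 0 for these 5 genes and for 21.5% of all tested genes. The remaining 4 had ratios between -0.17 for *Pou3f1* and 0.05 for *Sox4*. The median over the 9 genes was -0.56.

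The wild-type rescue left the 5 genes at different points between the scrambled control and the knockdown. With shScram+EV set to 0% and shYthdf2+EV to 100% on the log2 scale, shYthdf2+DF2WT stood at 15.5% for *Lef1*, 41.5% for *Sall2*, 45.8% for *Cdh2*, 53.9% for *Zic2* and 74.9% for *Sox3*. *Sox3* was accordingly the only one of the 9 that was still at least 2-fold above shScram+EV in the wild-type rescue, with a log2 ratio of 1.66 (95% interval 1.04 to 2.35) beside a share of 3.82% of all tested genes. The position is a ratio of differences that share the control and knockdown libraries, and its error was not estimated.

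With mutant YTHDF2, none of the 9 genes was 2-fold higher or lower than in shYthdf2+EV, beside 2.65% and 3.38% of all tested genes. The ratios lay between -0.35 for *Otx2* and 0.40 for *Cdh2*, with a median of -0.20. The interval lay above 0 for *Cdh2* alone (0.08 to 0.72), and below 0 for *Otx2*, *Zic2* and *Sox4*. The shares of all tested genes were 14.7% above and 12.9% below. On the same 0% to 100% scale, shYthdf2+DF2Mut stood at 83.1% for *Zic2*, 86.6% for *Sall2*, 90.3% for *Lef1*, 104% for *Sox3* and 126% for *Cdh2*. Against shScram+EV, the same 5 genes were at least 2-fold higher in the mutant rescue, beside 6.55% of all tested genes, with log2 ratios from 1.11 for *Sall2* to 2.30 for *Sox3*.

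The 2 rescue libraries were also compared directly; neither entered the comparison of knockdown with control. *Lef1* and *Cdh2* were at least 2-fold higher with mutant than with wild-type YTHDF2, and none of the 9 genes was 2-fold lower. Over all tested genes the shares were 5.4% and 6.21%. The log2 ratio was 1.53 (95% interval 1.00 to 2.11) for *Lef1*, 1.25 (95% interval 0.86 to 1.66) for *Cdh2*, 0.64 (95% interval 0.25 to 1.04) for *Sox3*, 0.58 (95% interval 0.22 to 0.94) for *Sall2* and 0.40 (95% interval 0.22 to 0.58) for *Zic2*. These 5 were the genes with an interval above 0, beside 23.9% of all tested genes, and *Otx2* (-0.31) and *Sox4* (-0.26) had an interval below 0, beside 23.6%. *Fgf5*, with 2 reads against 18, had a log2 ratio of 2.94 with a 95% interval of 0.37 to 8.67.

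GC content moved with the rescue comparisons. Over 16726 tested genes with a reference transcript, shYthdf2+DF2WT against shYthdf2+EV had a median log2 ratio of 0.17 for the 4112 genes of at least 55% GC and -0.19 for the 3713 genes under 45% GC. In shYthdf2+DF2Mut against shYthdf2+DF2WT the medians were -0.28 and 0.25. On knockdown they were -0.02 and 0.05. *Sox3* (66.4% GC), *Pou3f1* (63.9%) and *Zic2* (59.9%) have the most GC-rich transcripts of the 10 genes, and *Otx2* (46.8%) the least. With GC content and exon length corrected for, mutant against wild-type rescue was 1.09 for *Sox3* in place of 0.64 and 0.74 for *Zic2* in place of 0.40, so 3 of the 9 genes were then past 2-fold. *Pou3f1* was 0.35 in place of -0.03 and *Otx2* -0.50 in place of -0.31, and the median over the 9 genes was 0.63 in place of 0.40. Corrected wild-type rescue against knockdown was -0.88 for *Zic2*, -0.77 for *Sox3*, -0.41 for *Pou3f1* and -1.79 for *Lef1*. The part of GC content in the uncorrected ratios was otherwise not tested.

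**Figure D3:**
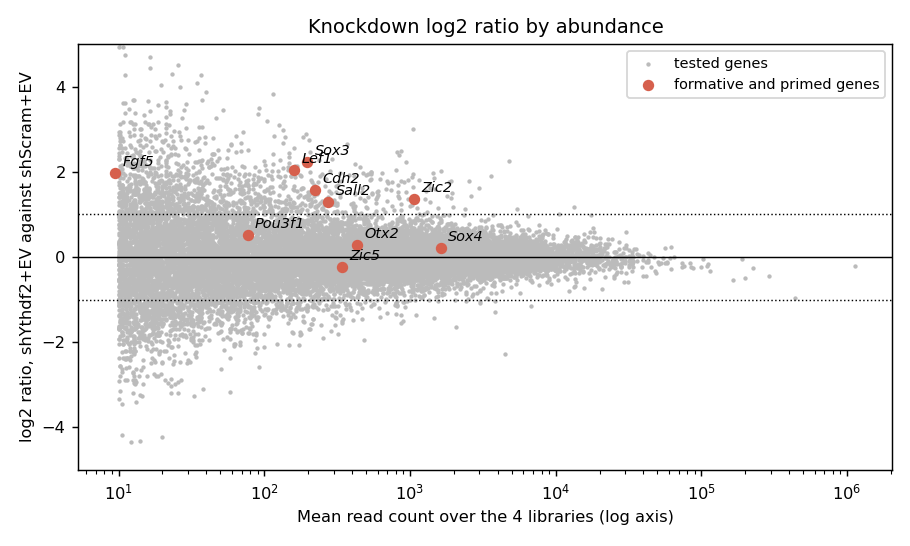
Log2 ratio in shYthdf2+EV against shScram+EV by mean read count (log axis) for the 18586 tested genes, with the 10 genes marked; 24 genes beyond a log2 ratio of 5 in either direction are not shown. *Sox3*, *Lef1*, *Cdh2*, *Zic2* and *Sall2* sit above the 2-fold line, as does the untested *Fgf5* at the left edge, and *Zic5* sits just under 0.

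Compared per kb of exon, the order of the 10 genes changed between libraries. *Sox4* led in shScram+EV and shYthdf2+DF2WT, with 9.52 and 11.3 CPM per kb, and *Zic2* was second with 5.77 and 9.63. In shYthdf2+EV and shYthdf2+DF2Mut *Zic2* led, with 14.9 and 12.7, ahead of *Sox4* with 11.0 and 9.45. *Fgf5* was last in every library, at 0.024 to 0.226 CPM per kb.

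Within their families, the shares show how much each gene counted beside its relatives, per kb of exon. *Lef1* took 4.57%, 21.2%, 6.46% and 16.9% of the LEF/TCF total. *Tcf7*, the most abundant of these factors, was lower on knockdown with a log2 ratio of -0.55 (95% interval -0.69 to -0.42). *Sox3* rested at 0.554%, 2.34%, 1.46% and 2.65% of the SOXB1 total, nearly all of which was *Sox2*, a core pluripotency factor with a log2 ratio of 0.12 (95% interval 0.07 to 0.17).

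**Figure D4:**
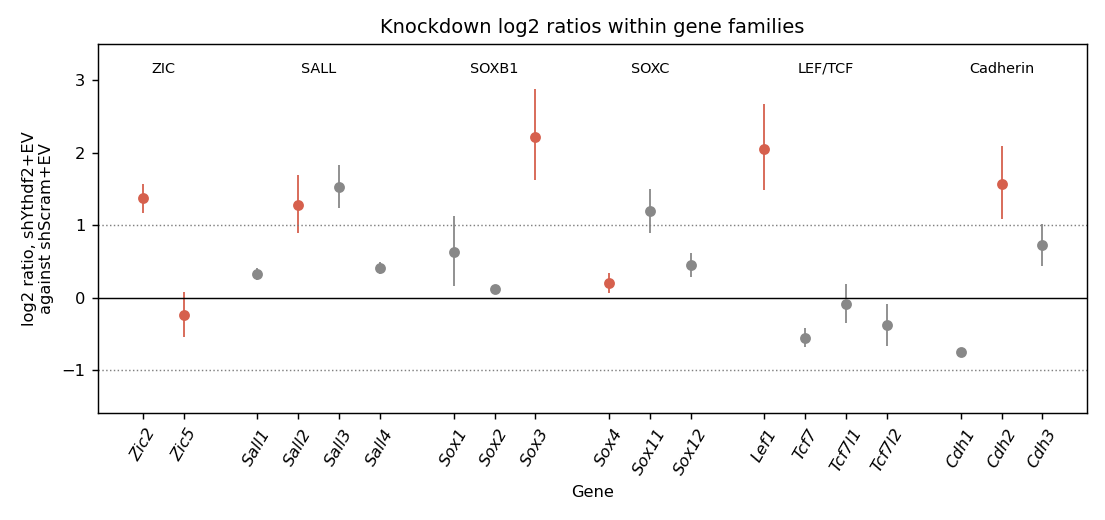
Log2 ratios in shYthdf2+EV against shScram+EV for tested genes of 6 families, with 95% counting intervals as bars, the genes of interest in red, their relatives in grey, and 0 and 2-fold as lines. *Lef1* (2.05), *Sox3* (2.22) and *Cdh2* (1.57) stand above the relatives drawn beside them, *Zic2* (1.37) stands above *Zic5* (-0.24), *Sall3* (1.52) and *Sall2* (1.28) lie close together, and *Sox11* (1.19) stands above *Sox4* (0.20).

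Among the paralogs of the 10 genes, 17 of 22 had enough reads, 2 were at least 2-fold higher on knockdown and none was 2-fold lower. The median over the 17 was 0.32. *Sall3*, a relative of *Sall2*, had 246, 806, 483 and 856 reads and a log2 ratio of 1.52 (95% interval 1.23 to 1.83). *Sox11*, a relative of *Sox4*, had 249, 648, 369 and 406 reads and a log2 ratio of 1.19 (95% interval 0.89 to 1.504). *Sox11* lies on chromosome 12, whose median was below 0 in that comparison.

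The list of other formative and primed genes held 18. On knockdown, 2 of the 18 were at least 2-fold higher, *Sox11* and *Fst*, none was 2-fold lower, and the median log2 ratio was 0.27. *Fst*, which encodes the activin inhibitor follistatin, had 59, 231, 70 and 188 reads, a pattern across libraries like that of *Lef1*. Its log2 ratio was 1.77 on knockdown (95% interval 1.19 to 2.42), -1.59 with wild-type YTHDF2 and 1.47 in mutant against wild-type rescue. The de novo DNA methyltransferases, which are standard formative markers, did not reach 2-fold: *Dnmt3a* had a log2 ratio of -0.32 and *Dnmt3b* of -0.13. *Dnmt3a* lies on chromosome 12, whose median on knockdown was -0.29. The larger list thus stood closer to the median of all tested genes than the 10 did.

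Genes of the naive state were also measured. Of 16, *Gbx2* was at least 2-fold higher on knockdown and *Tcl1* at least 2-fold lower, and the median was -0.04. *Gbx2*, a LIF target, had 428, 1273, 653 and 1008 reads with a log2 ratio of 1.39 (95% interval 1.16 to 1.62), and *Tcl1*, which lies on chromosome 12, had 2057, 1136, 1924 and 1119 reads with a log2 ratio of -1.04 (95% interval -1.19 to -0.89). *Nanog* had a log2 ratio of -0.0036 (95% interval -0.037 to 0.030). None of the 8 core pluripotency genes was 2-fold higher or lower, and their median was 0.23.

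Because *Lef1* responds to WNT signalling and *Fgf5* signals through FGF receptors, targets of both pathways were listed. Of 11 tested WNT targets and TCF genes, *Axin2* and *Notum*, both feedback inhibitors of the pathway, were at least 2-fold higher on knockdown, none was 2-fold lower, and the median was 0.26. *Axin2* had 347, 985, 531 and 918 reads (log2 ratio 1.32, 95% interval 1.07 to 1.58). *Notum* had 514, 1340, 804 and 1352 reads (log2 ratio 1.20, 95% interval 0.99 to 1.41). Both were lowest in shScram+EV and next lowest in shYthdf2+DF2WT, as was *Ccnd1* with 3030, 4262, 3254 and 3759 reads. *Sp5*, with 20, 46, 44 and 12 reads, and *Cdx1*, with 238, 177, 237 and 147, did not have this order. On knockdown, 3 of the 11 intervals lay above 0 and 4 below, beside 23.2% and 22.9% of all tested genes. Of 13 genes of FGF and ERK signalling, receptors included, none was 2-fold higher and the median was -0.02. Only the immediate early gene *Fos*, on chromosome 12, was 2-fold lower, with 3623, 1323, 2551 and 829 reads. The list went both ways, with 5 intervals above 0 and 6 below, beside 23.2% and 22.9% of all tested genes. Feedback genes *Spry4* (1166, 2614, 1463 and 2131 reads), *Spry2* (1079, 2047, 1359 and 1750) and *Dusp6* (1081, 1800, 1151 and 1569) were highest in shYthdf2+EV and next highest in shYthdf2+DF2Mut. The highest log2 ratio on the list was 0.98.

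**Figure D5:**
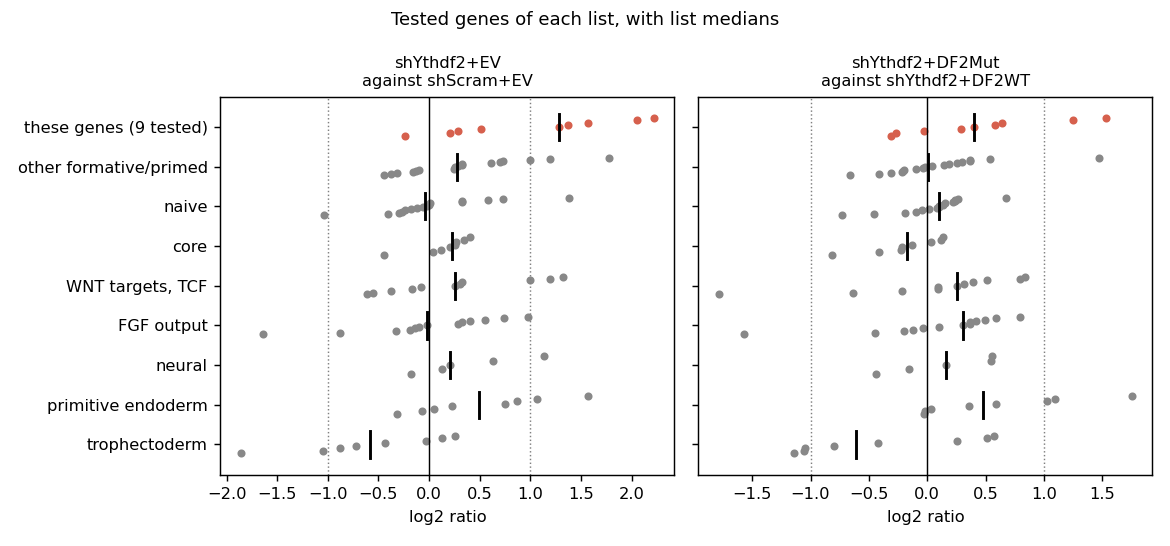
Log2 ratios of the tested genes of 9 lists in shYthdf2+EV against shScram+EV (left) and shYthdf2+DF2Mut against shYthdf2+DF2WT (right), 1 point per gene, with list medians as black bars and 2-fold as dotted lines. On the left the 9 tested genes of interest, in red, had a median of 1.28, the 18 other formative and primed genes 0.27, the 16 naive genes -0.04 and the 8 core genes 0.23. On the right the first 2 of these medians were 0.40 and 0.0079.

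Markers of other cell types were read beside these results. Of the neural list, 5 of 8 were tested, 1 was at least 2-fold higher on knockdown and the median was 0.20. The summed level was 75.1, 127, 94.7 and 122 CPM, and *Tubb3*, a neuronal tubulin, supplied most of it with 1339, 3350, 2018 and 2857 reads. *Sox1*, a SOXB1 factor of the neural plate, had 116, 205, 164 and 117 reads, and its interval on knockdown (0.16 to 1.13) lay above 0. The intervals of *Pax6*, *Nes* and *Map2* spanned 0. Of the primitive endoderm list, 8 of 9 were tested and 2 were at least 2-fold higher, with a median of 0.49 and a summed level of 522 to 546 CPM. Those 2 were *Dab2*, with 99, 237, 81 and 265 reads, and *Sox7*, with 8, 28, 18 and 36 reads. *Gata6* had 85, 163, 69 and 143 reads and *Pdgfra* had 168, 224, 154 and 224. Each of these genes was high in the knockdown and the mutant rescue. The other tested genes of that list did not follow this pattern. *Gata4* had 133, 121, 72 and 71 reads and *Sox17* had 20, 42, 16 and 20. *Sparc* had 14149, 16635, 15461 and 14665, and *Lama1* had 1821, 1972, 2022 and 1932. Of the trophectoderm list, all 8 were tested and 2 were at least 2-fold lower. These were *Krt8*, with 1217, 670, 1193 and 553 reads, and *Elf5*, with only 14, 4, 28 and 12. The median was -0.58 and the summed level was 145, 102, 139 and 107 CPM. Ratios of *Cdx2* (8, 11, 10 and 14 reads) and *Eomes* (675, 841, 668 and 961 reads) were above 0, and the other 6 were below. Of the mesendoderm list, 4 of 8 were tested, 1 was 2-fold higher and 1 was 2-fold lower, with a median of -0.03, a summed level of 22.8 to 31.7 CPM, and the defining gene *T* at 0 reads in all 4 libraries. Of the fibroblast list, 4 of 8 were tested, none was past 2-fold, the median was 0.31, the summed level was 335 to 363 CPM, and *Dcn* and *Lum* were at 0 reads in every library. The part of these marker genes in the results for the 10 genes was not tested.

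Counting ignored strand, so reads of neighbouring and antisense transcripts were examined. *Sall2* ends 78 bases from *Mettl3*, the m6A methyltransferase gene on the same strand, which had 1230, 1262, 1102 and 1000 reads and a log2 ratio of -0.15 on knockdown. *2610035F20Rik*, on the opposite strand 184 bases from *Zic2*, had 38, 111, 110 and 66 reads. The transcripts that overlap *Sox3* and *Sox4* had between 0 and 7 reads in any library, and the antisense gene next to *Otx2* had between 1 and 4.

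The starts of the genes were read where a start window was available. RefSeq on GRCm38.p6 gave 13 start windows of 300 bases for 6 of the 10 genes, *Fgf5*, *Otx2*, *Lef1*, *Sall2*, *Zic5* and *Sox4*. The LEF/TCF core, searched as CTTTGAT or CTTTGAA on both strands, was in none of the 13 windows and in 8.65% of 32851 windows of all genes. Among the tested genes at least 2-fold higher on knockdown, only *Lef1* and *Sall2* had a window, and some windows of the same gene overlapped. So few windows cannot show whether genes that moved together share a sequence. One window is shown for *Lef1*, past 2-fold on knockdown, and the window for *Zic5*, which was not, with CpG dinucleotides in capitals.
Lef1 (chr3:131110047-131110346, plus strand): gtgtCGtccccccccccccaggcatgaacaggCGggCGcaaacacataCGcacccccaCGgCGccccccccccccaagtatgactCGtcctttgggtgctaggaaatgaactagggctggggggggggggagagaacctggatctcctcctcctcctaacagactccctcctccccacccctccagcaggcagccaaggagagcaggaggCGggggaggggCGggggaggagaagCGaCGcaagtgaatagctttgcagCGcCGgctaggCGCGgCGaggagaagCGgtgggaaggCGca
Zic5 (chr14:122465609-122465908, minus strand): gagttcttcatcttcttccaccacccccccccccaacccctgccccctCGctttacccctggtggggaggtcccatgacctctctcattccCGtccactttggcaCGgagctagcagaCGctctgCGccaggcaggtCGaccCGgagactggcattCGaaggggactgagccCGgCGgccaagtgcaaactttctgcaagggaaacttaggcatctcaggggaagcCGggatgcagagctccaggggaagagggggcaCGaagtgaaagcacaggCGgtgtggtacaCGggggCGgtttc

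The *Lef1* window held 18 CpG and was 67.3% GC, and that of *Zic5* held 15 and was 62.7% GC. The median over all windows was 7 CpG, with quartiles of 3 and 20.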

How the data were processed

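Poly(A)+ RNA of E14 mouse ESCs was sequenced in 4 libraries, and each library was assigned to its group by its title. The authors deposited read counts per gene, whole numbers with no normalization. Per the file headers they were made with featureCounts 2.0.3 on mm39 RefSeq exons, unstranded, counting reads and not read pairs. The submitters' processing notes list fastp 0.19.4, HISAT2 2.2.1, DESeq2 1.40.2 and the build mm10, which differs from the header. Reads that overlapped 2 genes or aligned to several places were left out. Among counts of 1 to 20, between 59.0% and 61.1% were even.

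Counts were scaled with TMM factors (edgeR 4.0.16, R 4.3.3) over genes averaging at least 10 reads. Log2 ratios used a prior count of 0.5, and the 95% Clopper-Pearson intervals used reads divided by 2. They cover counting error only, as do floors of 3 reads, which equal 0.0835 to 0.0949 CPM. A gene was counted as higher or lower from a 2-fold ratio. No p-value was computed. The code was tested on simulated data. The 10 genes, the other lists and the rule for naming genes (each of the 10, *Ythdf2*, listed genes past 2-fold with a mean of at least 50 reads, paralogs and neighbours) were chosen with earlier results of these data known. *Pou5f1*, *Nanog*, *Dnmt3a*, *Dnmt3b*, *Pax6*, *Nes*, *Map2*, *Gata4*, *Sox17*, *Sparc*, *Lama1*, *Foxa2*, *T*, *Dcn* and *Lum* were named outside that rule, after their values were seen. The same holds for *Spry2*, *Spry4*, *Dusp6*, *Ccnd1*, *Sp5*, *Cdx1*, *Sox7*, *Pdgfra*, *Elf5*, *Cdx2* and *Eomes*. Alternatives were total counts, upper-quartile scaling and the size factors of DESeq2 1.42.0, other prior counts, filters and fold limits, and corrections for GC content and chromosome. Transcript GC content and motifs came from GENCODE vM21 on GRCm38, and start windows from RefSeq on GRCm38.p6.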

Additional observations from a re-analysis of the deposited data

How the results depend on the processing

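No paired analysis was possible because each group had 1 library, and for the same reason no library could be left out. Counts of genes were held to 1.5 times the reported count, medians to the median half-width of the genes' 95% counting intervals, and single genes to their own interval. Of 116 values of the counts and medians under the alternatives, 113 stayed within these limits. Those that did not were the log2 ratio of summed counts on knockdown, 0.69 in place of the median of 1.28, and the number of genes at least 2-fold lower with wild-type YTHDF2, which was 1 as reported, 2 with a mean count of at least 1, which admits *Fgf5*, and 4 with a limit of 1.5-fold. Within the limits, but by over 1.5 times, summed counts also gave -0.31 in place of -0.56 for wild-type rescue against knockdown and 0.18 in place of 0.40 for mutant against wild-type rescue, and correcting for GC content and length gave 0.63 for the latter. Of 240 values for single genes, 237 stayed within their intervals, and those that did not came with the same correction: *Zic2* at -0.88 with wild-type YTHDF2 and 0.74 in mutant against wild-type rescue, and *Sox3* at 1.09 in the latter. A prior count of 5 brought *Fgf5*, whose intervals are wide, to 1.21 in place of 1.97 on knockdown, -1.42 in place of -2.51 with wild-type YTHDF2 and 1.76 in place of 2.94 in mutant against wild-type rescue. The sign changed in 6 single-gene values, all for ratios reported at 0.033 or smaller in size, and the furthest was *Pou3f1* at 0.35 in mutant against wild-type rescue with GC content and length corrected for. Another scaling moved the median of all genes by at most 0.044. Depth limits *Fgf5* most, with 2 to 18 reads per library.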

Other observations

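Some relatives of the 10 genes, and a marker of another lineage, were at 0 reads in shScram+EV and detected elsewhere. *Pou3f4*, a brain-type POU factor, had 0, 14, 3 and 6 reads in the scrambled control, knockdown, wild-type rescue and mutant rescue. Its level in shYthdf2+EV was 4.10 times the floor of 3 reads in shScram+EV. That ratio is no lower bound, because the counting interval of 0 reads in shScram+EV reached 0.233 CPM. The interval of *Pou3f4* in shYthdf2+EV, 0.157 to 0.802 CPM, overlapped it. *Pou3f2* had 0, 9, 2 and 0 reads, and its level in shYthdf2+EV was 2.64 times the same floor. Its interval in shYthdf2+EV, 0.0751 to 0.610 CPM, also overlapped that of 0 reads in shScram+EV. *Foxa2*, a factor of endoderm and mesendoderm, had 0, 16, 6 and 8 reads. Its level in shYthdf2+EV was 4.69 times the floor, and its interval there, 0.192 to 0.877 CPM, again overlapped that of 0 reads in shScram+EV. All 3 genes have under 20 reads in every library, and they were picked after their values were seen. Of the other relatives with too few reads to be tested, *Zic4* and *Crx* had between 0 and 2 reads in any library, and *Zic1* had 11, 13, 6 and 9.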
